A study of Mus musculus with 24 samples.

Results

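A set of 10 marker genes of T and natural killer (NK) cells were followed through 24 RNA sequencing libraries of whole mouse fat. They are Cd3e, Cd3g, Cd4, Cd8a, Cd8b1, Foxp3, Gata3, Tbx21, Klrb1c and Nkg7. They were chosen by name as markers, with earlier results of these data known, and make up 10 of the 49585 gene identifiers in the deposited count tables. All mice were male, on the C57BL/6J background. In the diet experiment, wild-type mice ate a high-fat diet (60% of calories from fat) or a low-fat diet (10%) for 20 weeks, and subcutaneous adipose tissue (SAT) was taken (n = 4 each). In the genotype experiment, both genotypes ate the high-fat diet for 8 weeks. Epigonadal adipose tissue (GAT) was taken from Azin2-/- mice (n = 4) and wild-type littermates (n = 4), and SAT from Azin2-/- mice (n = 3) and wild-type littermates (n = 5). Azin2 encodes antizyme inhibitor 2, a regulator of polyamine metabolism, and the labels do not say in which cells the deletion acts. The labels give the weeks of diet and no age.

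T cells recognise antigen through a receptor whose signal passes through the CD3 chains. CD4 marks helper and regulatory T cells and CD8 marks cytotoxic T cells, while NK cells kill without a rearranged receptor. In mouse visceral fat, regulatory T cells that need the transcription factor Foxp3 are a known resident population of lean animals, and T-bet (Tbx21), Foxp3 and GATA3 are the factors that define type 1, regulatory and type 2 programmes. In whole tissue, fewer cells of a type and less RNA per cell cannot be told apart.

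The libraries held 31.96 to 46.62 megareads. Levels are given as CPM, the count of a gene divided by the total of its library in megareads, and a count of 0 would allow up to 3 counts in a library. Azin2 ranged from 12.7 to 19.8 CPM in Azin2-/- GAT, against 22.9 to 26.6 CPM in wild-type GAT. It ranged from 6.73 to 11.5 CPM in Azin2-/- SAT, against 14.6 to 26.0 CPM in wild-type SAT. Markers of other tissues set some libraries apart. The summed level of 10 epididymis genes was 48447 CPM in the library labelled low-fat SAT replicate 1 and 4589 CPM in wild-type GAT replicate 3, and 0.112 to 1.08 CPM in the other 22. In the library labelled low-fat SAT replicate 1, the subcutaneous identity genes Hoxc10 and Tbx15 stood at 0.0469 and 0.117 CPM, which goes against its label. The lowest values in the other low-fat SAT libraries were 25.5 CPM for Hoxc10 and 18.1 CPM for Tbx15. Skeletal muscle genes, 16 in number, summed to 77440 CPM in Azin2-/- SAT replicate 2 to 69173 CPM in wild-type SAT replicate 3, to 25531 CPM in low-fat SAT replicate 5, to 7208 CPM in high-fat SAT replicate 6 and to 1313 CPM in low-fat SAT replicate 6, against 39.5 to 276 CPM in the other libraries.

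All 10 genes were detected in every library, at 2 counts or more, and all 10 passed the low-count filter in every comparison. They were low. Per kilobase of exon, the highest group mean in high-fat SAT was 3.74 CPM, for Nkg7, and the lowest was 0.11 CPM, for Foxp3. Nkg7 was also highest per kilobase in Azin2-/- GAT at 2.11 CPM, in Azin2-/- SAT at 1.67 CPM and in wild-type SAT at 2.23 CPM. In low-fat SAT and wild-type GAT, the highest means per kilobase belonged to Klrb1c (18.1 CPM) and Gata3 (2.59 CPM), each through 1 library described below. Over the 10 genes, 48 of the 50 neighbouring pairs in the order of group means had overlapping ranges, so most of that order lies within the spread of the libraries. The exceptions were Foxp3, where every Azin2-/- GAT library lay above every high-fat SAT library, and Gata3, where every high-fat SAT library lay above every Azin2-/- SAT library. These 2 pairs join groups from different experiments and were not tested.

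**Figure D1:**
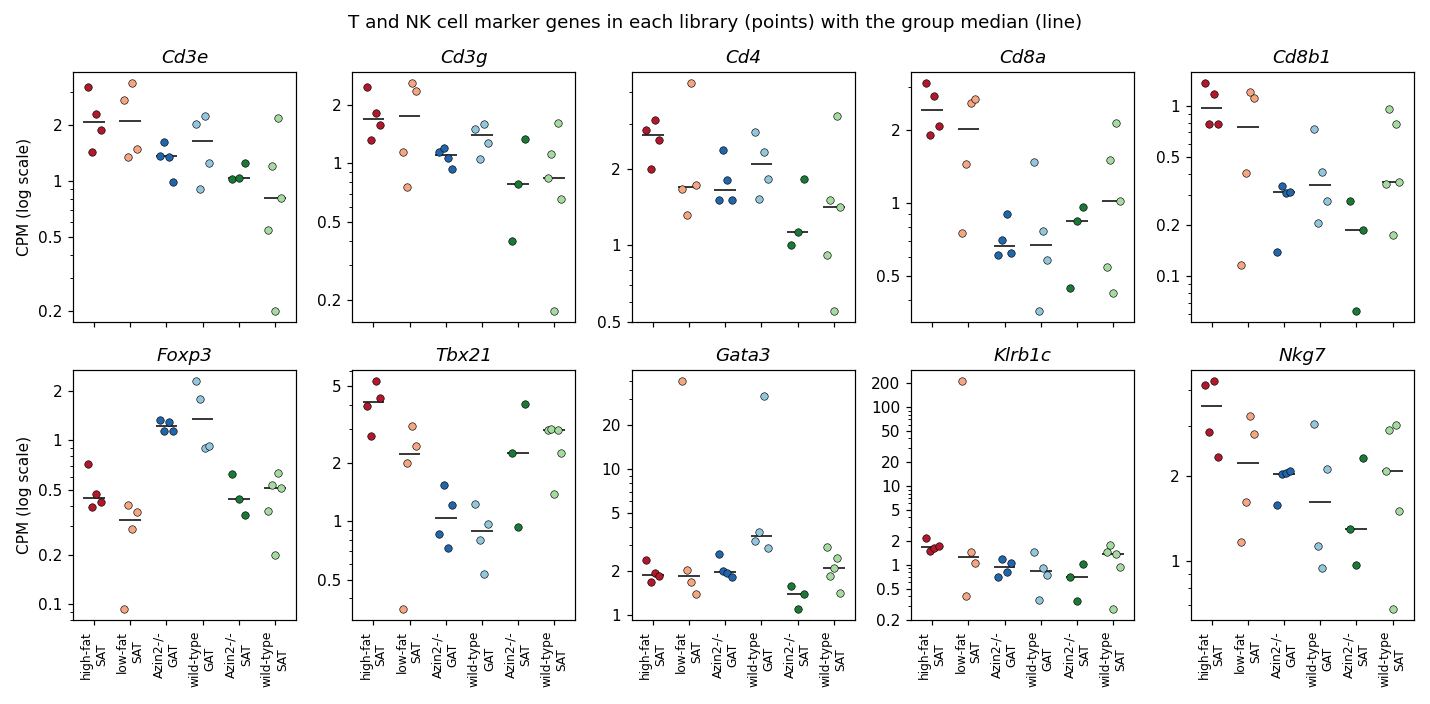
Level of each of the 10 marker genes in CPM (log axis, a scale per gene) in every library of the 6 groups; points are libraries and lines are group medians. By median, Foxp3 is highest in both GAT groups and Tbx21 is lowest there, while single libraries of Gata3 (39.7 and 31.3 CPM) and Klrb1c (212 CPM) stand far above the rest.

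For both CD3 chains, neighbouring groups in the order of means overlapped. Cd3e (ENSMUSG00000032093, chromosome 9, 44998740 to 45009627, minus strand, GRCm38) encodes CD3 epsilon, a signalling chain of the T cell receptor complex. It ranged from 1.43 to 3.18 CPM in high-fat SAT and from 1.34 to 3.34 CPM in low-fat SAT. It ranged from 0.982 to 1.62 CPM in Azin2-/- GAT and from 0.903 to 2.23 CPM in wild-type GAT. In SAT of the genotype experiment it was 1.02, 1.03 and 1.24 CPM in Azin2-/- libraries, against 0.545, 1.20, 0.200, 2.17 and 0.810 CPM in wild-type libraries. The wild-type SAT value of 0.200 CPM, the lowest of Cd3e, is from the muscle-rich replicate 3. Cd3g (ENSMUSG00000002033, chromosome 9, 44969572 to 44980431, minus strand), which encodes the CD3 gamma chain, lies close to Cd3e. Its ratio to Cd3e per kilobase had group medians between 0.831 and 1.10, and single libraries ran from 0.487 (in Azin2-/- SAT) to 1.98 (in low-fat SAT).

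The co-receptors showed the same overlap. Cd4 (ENSMUSG00000023274, chromosome 6, 124864692 to 124888221, minus strand) encodes the co-receptor for class II antigen presentation. It ranged from 1.99 to 3.11 CPM in high-fat SAT, against 1.32 to 4.34 CPM in low-fat SAT, and from 0.551 to 3.23 CPM in the 4 groups of the genotype experiment. Cd8a (ENSMUSG00000053977, chromosome 6, 71373427 to 71379173, plus strand) and Cd8b1 (ENSMUSG00000053044, chromosome 6, 71322788 to 71337494, plus strand) encode the alpha and beta chains of CD8. Cd8a was 3.10, 1.90, 2.74 and 2.08 CPM in high-fat SAT, against 0.751, 1.45, 2.58 and 2.66 CPM in low-fat SAT. Cd8b1 was 1.36, 0.784, 1.17 and 0.787 CPM in high-fat SAT, against 0.117, 0.403, 1.21 and 1.11 CPM in low-fat SAT. For both genes 2 low-fat libraries reached into the high-fat range and 2 fell below it. In the genotype experiment, the ratio of Cd8a to Cd3e per kilobase was 0.489 to 0.748 in Azin2-/- GAT, against 0.492 to 0.918 in Azin2-/- SAT. It was 0.387 to 0.812 in wild-type GAT and 1.11 to 2.38 in wild-type SAT, which did not overlap. These ratios are a description and were not tested. The lowest count of any gene was 2, for Cd8b1 in the muscle-rich Azin2-/- SAT replicate 2 (0.0626 CPM).

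Foxp3 and Tbx21 were the members that differed between the depots. Foxp3 (ENSMUSG00000039521, chromosome X, 7573644 to 7595245, plus strand) encodes the transcription factor that defines regulatory T cells. Tbx21 (ENSMUSG00000001444, chromosome 11, 97098071 to 97115331, minus strand) encodes T-bet, which drives the type 1 programme of helper T cells and is needed by NK cells. The 250 bases before their annotated starts are printed because these genes moved in opposite directions between the same tissues. The sequences are from RefSeq (GRCm38.p6), 5′ to 3′ on the gene's strand, with any GATA motif in capitals. The windows are chrX:7579426-7579675 and chrX:7580233-7580482 (plus strand) for the 2 annotated starts of Foxp3, and chr11:97115332-97115581 (minus strand) for Tbx21. Both Foxp3 windows lie inside the gene span given above, downstream of its first base at 7573644. They also lie inside an annotated exon of the long noncoding RNA Flicr.
Foxp3 start 1: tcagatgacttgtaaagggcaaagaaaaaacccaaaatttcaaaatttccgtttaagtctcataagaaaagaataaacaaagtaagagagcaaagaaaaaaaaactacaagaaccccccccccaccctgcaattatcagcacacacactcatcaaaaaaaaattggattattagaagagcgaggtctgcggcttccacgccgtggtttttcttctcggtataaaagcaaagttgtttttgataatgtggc
Foxp3 start 2: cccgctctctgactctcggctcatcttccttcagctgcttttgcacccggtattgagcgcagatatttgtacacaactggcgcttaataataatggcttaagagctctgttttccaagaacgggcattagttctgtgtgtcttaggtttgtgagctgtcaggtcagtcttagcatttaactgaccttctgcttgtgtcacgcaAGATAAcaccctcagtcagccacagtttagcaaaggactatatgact
Tbx21: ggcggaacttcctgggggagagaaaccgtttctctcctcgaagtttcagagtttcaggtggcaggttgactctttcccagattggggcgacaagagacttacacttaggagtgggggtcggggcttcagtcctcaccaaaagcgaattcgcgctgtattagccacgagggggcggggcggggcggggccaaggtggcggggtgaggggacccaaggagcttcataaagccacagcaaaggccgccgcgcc
The motif AGATAA, searched on both strands, occurs once in the window of the second Foxp3 start and in 9.99% of the 32851 promoters of the table. The first Foxp3 window and the Tbx21 window hold neither it, nor TGTGGT (RUNX, in 14.0% of promoters), nor GGTGTGA (T-box, in 3.33%). Of the other members, Cd3g has AGATAA in its window, Klrb1c has TGTGGT, and Nkg7 has TGTGGT and GGTGTGA. A match is a description of the letters and not evidence of binding. Of the 10 genes 8 had a promoter entry, and Cd4 and Cd8b1 had none.

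In wild-type mice, Foxp3 rose and Tbx21 fell in epigonadal relative to subcutaneous fat. Foxp3 was 2.28, 1.78, 0.895 and 0.917 CPM in wild-type GAT, against 0.371, 0.536, 0.200, 0.635 and 0.510 CPM in wild-type SAT. Every GAT library lay above every SAT library. The group means were 1.47 ± 0.682 CPM (SD, n = 4) in GAT and 0.451 ± 0.169 CPM (SD, n = 5) in SAT. The fitted level was 3.19-fold higher in GAT (log2 fold change 1.67, SE 0.376, edgeR quasi-likelihood test, Benjamini-Hochberg adjusted p = 0.0389). Tbx21 was 1.23, 0.800, 0.537 and 0.972 CPM in wild-type GAT, against 2.97, 2.98, 1.38, 2.97 and 2.25 CPM in wild-type SAT. Every GAT library lay below every SAT library. Tbx21 averaged 0.884 ± 0.291 CPM (SD, n = 4) in GAT and 2.51 ± 0.707 CPM (SD, n = 5) in SAT. Its log2 fold change was -1.52 (SE 0.294, edgeR adjusted p = 0.0221), or 2.87-fold lower in GAT. These 2 members were called out of 10, where 4.33% of all 17030 tested genes were called.

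The other 8 members were not called between the wild-type depots. The DESeq2 Wald test called the same number, 2, and gave no adjusted p to Gata3. The median log2 fold change of the 10 was 0.14, against -0.01 over all genes. Gata3 (ENSMUSG00000015619, chromosome 2, 9857078 to 9890034, minus strand), the master factor of type 2 helper T cells that many epithelia also use, had a log2 fold change of 2.18 (SE 0.727, edgeR adjusted p = 0.134). It was 3.21, 3.71, 31.3 and 2.89 CPM in wild-type GAT, against 2.90, 1.84, 2.10, 2.45 and 1.41 CPM in wild-type SAT. Without the epididymis-rich GAT replicate 3 its log2 fold change was 0.58 (edgeR adjusted p = 0.194). The 7 remaining members had log2 fold changes between -0.52 for Cd8a and 0.68 for Cd3e, with overlapping groups.

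The wild-type calls rested on few libraries. Without wild-type GAT replicate 3 and the muscle-rich wild-type SAT replicate 3 together, Foxp3 had a log2 fold change of 1.71 (edgeR adjusted p = 0.0246) and Tbx21 of -1.46 (edgeR adjusted p = 0.011). With single libraries left out, the log2 fold change of Foxp3 stayed between 1.38 (without wild-type GAT replicate 1) and 1.86 (without wild-type GAT replicate 3). Its edgeR adjusted p then lay between 0.0243 and 0.106 and was under 0.05 only without wild-type GAT replicate 3. That of Tbx21 stayed between -1.72 and -1.33, with edgeR adjusted p from 0.0153 to 0.0748, and missed the threshold without wild-type GAT replicate 2 or 4 or wild-type SAT replicate 1 or 4. With the animal marks shared by the depots as a replicate block, the log2 fold changes were 1.89 for Foxp3 (edgeR adjusted p = 0.31) and -1.47 for Tbx21 (edgeR adjusted p = 0.284). That paired fit called 0 of all genes tested. It drew the depot difference only from the 3 wild-type pairs that share a mark, which limits what it could detect.

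In Azin2-/- mice Foxp3 again rose in epigonadal fat. It was 1.33, 1.13, 1.29 and 1.14 CPM in Azin2-/- GAT, against 0.624, 0.438 and 0.350 CPM in Azin2-/- SAT, with no overlap. The means were 1.22 ± 0.105 CPM (SD, n = 4) in GAT and 0.471 ± 0.140 CPM (SD, n = 3) in SAT, and the fitted level was 2.31-fold higher in GAT (log2 fold change 1.21, SE 0.260, edgeR adjusted p = 0.0272). Tbx21 was 0.859, 1.54, 0.730 and 1.21 CPM in Azin2-/- GAT, against 2.25, 0.939 and 4.03 CPM in Azin2-/- SAT. The muscle-rich SAT replicate 2, at 0.939 CPM, lay within the GAT range. The log2 fold change of Tbx21 was -1.26 (SE 0.449, edgeR adjusted p = 0.0956). Without that library it was -1.59 (edgeR adjusted p = 0.0367), and over all its alternatives the adjusted p ran from 0.0367 to 0.484. Foxp3 was the 1 member of 10 called here, where 15.2% of 16800 tested genes were called, so the share of members called is near that of all genes. DESeq2 called 2, Foxp3 and Tbx21.

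The remaining 8 members did not pass the test between the Azin2-/- depots. Gata3 was 2.61, 1.99, 1.94 and 1.83 CPM in Azin2-/- GAT, against 1.57, 1.10 and 1.40 CPM in Azin2-/- SAT, which did not overlap (log2 fold change 0.47, SE 0.201, edgeR adjusted p = 0.143). The median log2 fold change of the 10 members was 0.25, against -0.03 over all genes. The call of Foxp3 was lost without Azin2-/- GAT replicate 2, 3 or 4 or Azin2-/- SAT replicate 3, where its edgeR adjusted p ran from 0.0712 to 0.0836. With the animal mark as a replicate block, its log2 fold change was 1.41 (edgeR adjusted p = 0.153), drawn from the 2 Azin2-/- pairs that share a mark.

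**Figure D2:**
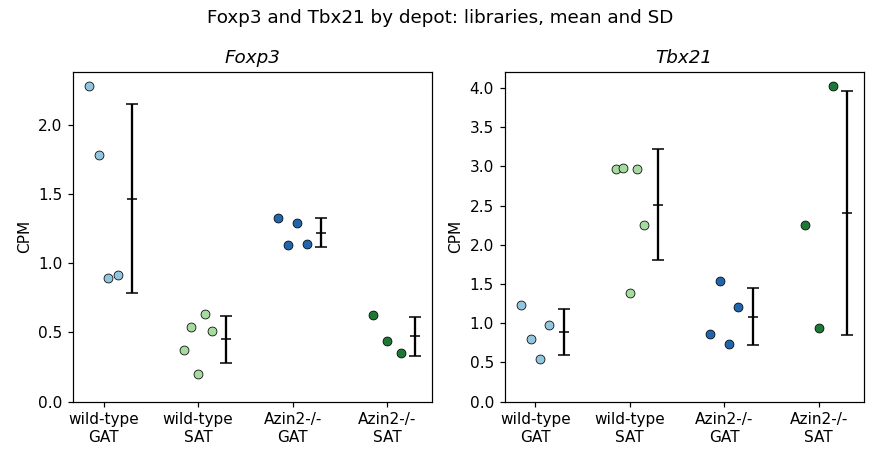
Level of Foxp3 and Tbx21 in CPM (linear axis from 0) by depot within each genotype; points are libraries, and the bars beside them are means with SD. All GAT libraries lie at 0.895 CPM of Foxp3 or more and all SAT libraries of the genotype experiment at 0.635 CPM or less, while Tbx21 overlaps between depots only in Azin2-/- mice.

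Other measurements beside the depot results were these. Relative to the general T cell marker, the ratio of Foxp3 to Cd3e per kilobase was 0.618 to 1.03 in Azin2-/- GAT, against 0.252 to 0.544 in Azin2-/- SAT. It was 0.359 to 1.76 in wild-type GAT and 0.261 to 0.891 in wild-type SAT, which overlapped. The ratio of Tbx21 to Nkg7 per kilobase was 0.131 to 0.281 in Azin2-/- GAT, against 0.356 to 0.641 in Azin2-/- SAT. It was 0.149 to 0.259 in wild-type GAT and 0.36 to 0.748 in wild-type SAT, so the depots did not overlap in either genotype. These ratios are descriptions without a test. The summed level of the 15 macrophage genes was 2192 to 5711 CPM in Azin2-/- GAT, against 616 to 1425 CPM in Azin2-/- SAT, and 1094 to 2016 CPM in wild-type GAT, against 586 to 1143 CPM in wild-type SAT. The summed level of 6 lymph node stroma genes was 3.65 to 28.3 CPM in Azin2-/- GAT, against 0.645 to 4.2 CPM in Azin2-/- SAT, and 8.66 to 21.7 CPM in wild-type GAT, against 0.408 to 7.56 CPM in wild-type SAT. The lymph node gene Glycam1 was at 0 in 22 of 24 libraries. The part of these cells in the Foxp3 and Tbx21 results was not tested.

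Foxp3 shares its locus with genes on the opposite strand, and the sources used here do not give the strand setting of the counting. Ppp1r3f had a log2 fold change of -0.11 (SE 0.347, edgeR adjusted p = 0.887) between the wild-type depots and -0.63 (SE 0.224, edgeR adjusted p = 0.0943) between the Azin2-/- depots. Ccdc22 had at most 27 counts in a library, and log2 fold changes of -0.36 and -0.02. Flicr, on the strand of Foxp3, had at most 10 counts. Reads of overlapping genes cannot be assigned with certainty, and their part in the Foxp3 results was not tested.

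Loss of Azin2 changed none of the 10 genes past the threshold in GAT. Of the fold changes 7 were negative and 3 positive, with a median log2 fold change of -0.25, against -0.03 over all genes. By edgeR 0 members were called, 1 had an unadjusted p under 0.05, and DESeq2 called 0, where edgeR called 6.77% of 16778 genes. DESeq2 gave no adjusted p to Gata3 here. Gata3 was the member with the unadjusted p under 0.05. It was 2.61, 1.99, 1.94 and 1.83 CPM in Azin2-/- GAT, against 3.21, 3.71, 31.3 and 2.89 CPM in wild-type GAT. The groups did not overlap, and the wild-type value of 31.3 CPM is from the epididymis-rich replicate 3. The log2 fold change was -2.27 (SE 0.793, edgeR adjusted p = 0.111). Without that library it was -0.66 (edgeR adjusted p = 0.0554), on means of 2.09 ± 0.350 CPM (SD, n = 4) in Azin2-/- GAT and 3.27 ± 0.416 CPM (SD, n = 3) in wild-type GAT.

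The T cell receptor and co-receptor genes all had small negative fold changes by genotype in GAT, from -0.56 for Cd8b1 to -0.17 for Cd8a on the log2 scale, and none was called. Foxp3 had a log2 fold change of -0.27 (SE 0.329, edgeR adjusted p = 0.615). Tbx21, Klrb1c and Nkg7 had log2 fold changes of 0.29, 0.10 and 0.09, with SEs of 0.336, 0.395 and 0.370. The fold changes of Cd8a, Foxp3, Klrb1c and Nkg7 changed sign when single libraries were left out.

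In SAT, loss of Azin2 also changed no member past the threshold. By edgeR 0 of 10 were called, 1 had an unadjusted p under 0.05, and DESeq2 called 0. The whole table held 1 called gene of 16948, or 0.0059%. Cd8b1 was the member with the unadjusted p under 0.05. It was 0.275, 0.0626 and 0.188 CPM in Azin2-/- SAT, against 0.347, 0.965, 0.175, 0.780 and 0.360 CPM in wild-type SAT, and the groups overlapped (log2 fold change -1.44, SE 0.608, edgeR adjusted p = 0.471). Gata3 was 1.57, 1.10 and 1.40 CPM in Azin2-/- SAT, against 2.90, 1.84, 2.10, 2.45 and 1.41 CPM in wild-type SAT (log2 fold change -0.56, SE 0.252, edgeR adjusted p = 0.493). Foxp3 had a log2 fold change of 0.19 (SE 0.359) and Tbx21 of 0.02 (SE 0.384).

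The genotype effect was also compared between the depots. By edgeR 0 of the 10 members differed in it, 0 had an unadjusted p under 0.05, and DESeq2 called 0, where edgeR called 0.0% of 18033 genes (2016 had an unadjusted p under 0.05, and DESeq2 called 158). For Foxp3, the genotype effect in GAT minus that in SAT was -0.46 on the log2 scale (SE 0.497, edgeR adjusted p = 0.748), and for Tbx21 it was 0.27 (SE 0.537, edgeR adjusted p = 0.868). The SEs of the 10 differences ran from 0.497 for Foxp3 to 0.872 for Gata3, which limits what could be detected. Each of these values shares its libraries with the genotype and depot comparisons above.

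The high-fat diet of 20 weeks gave no called change in the 10 genes of SAT, and the direction of 2 of them was set by 1 library. By edgeR 0 members were called, 1 had an unadjusted p under 0.05, and DESeq2 called 0, where edgeR called 21.2% of 17066 genes. DESeq2 gave no adjusted p to Gata3 and Klrb1c here. Tbx21 was 3.93, 2.77, 5.28 and 4.33 CPM in high-fat SAT, against 0.352, 1.99, 3.10 and 2.44 CPM in low-fat SAT. Of the high-fat libraries 3 lay above all low-fat ones and 1 fell within their range. The means were 4.08 ± 1.04 CPM in high-fat SAT and 1.97 ± 1.17 CPM in low-fat SAT (SD, n = 4 each), and the log2 fold change was 0.97 (SE 0.572, edgeR adjusted p = 0.253). Without the library labelled low-fat SAT replicate 1 it was 0.61 (edgeR adjusted p = 0.069).

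Klrb1c (ENSMUSG00000030325, chromosome 6, 128778485 to 128789215, minus strand) encodes NK1.1, the surface receptor used to identify NK cells in C57BL/6 mice. It was 2.16, 1.48, 1.62 and 1.71 CPM in high-fat SAT, against 212, 0.403, 1.45 and 1.04 CPM in low-fat SAT. The value of 212 CPM, from 9017 counts, is in the library labelled low-fat SAT replicate 1. With it the log2 fold change was -4.99 (SE 2.03, edgeR adjusted p = 0.117). Without it the direction turned, with a log2 fold change of 0.77 (edgeR adjusted p = 0.127) and all 4 high-fat libraries above the 3 low-fat ones. Gata3 behaved likewise, at 2.38, 1.68, 1.94 and 1.85 CPM in high-fat SAT, against 39.7, 2.02, 1.68 and 1.40 CPM in low-fat SAT. Its log2 fold change was -2.56 (SE 1.16, edgeR adjusted p = 0.149) with that library and 0.12 (edgeR adjusted p = 0.649) without it.

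Nkg7 (ENSMUSG00000004612, chromosome 7, 43437073 to 43438249, plus strand) encodes a granule protein of cytotoxic lymphocytes. It was 4.18, 2.85, 4.31 and 2.33 CPM in high-fat SAT, against 1.17, 1.61, 3.26 and 2.81 CPM in low-fat SAT, with overlap (log2 fold change 0.54, SE 0.374, edgeR adjusted p = 0.321). Foxp3 was 0.719, 0.392, 0.473 and 0.422 CPM in high-fat SAT, against 0.0938, 0.403, 0.289 and 0.363 CPM in low-fat SAT, with 1 high-fat library inside the low-fat range (log2 fold change 0.72, SE 0.437, edgeR adjusted p = 0.263). Cd3e, Cd3g and Cd4 had log2 fold changes of -0.09, -0.01 and 0.14, with SEs of 0.374, 0.423 and 0.398. Without the muscle-rich low-fat SAT replicate 5, which held the highest Cd4 (4.34 CPM), these were 0.20, 0.28 and 0.69, with edgeR adjusted p of 0.714, 0.675 and 0.0907. Without it, as without high-fat SAT replicate 6, 0 of the 10 members were called. The median log2 fold change of the 10 members was 0.23, against -0.09 over all genes. Without the library labelled low-fat SAT replicate 1, 9 of 10 fold changes were positive with a median of 0.10 on the log2 scale, and 0 members were called where 47% of all genes were.

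**Figure D3:**
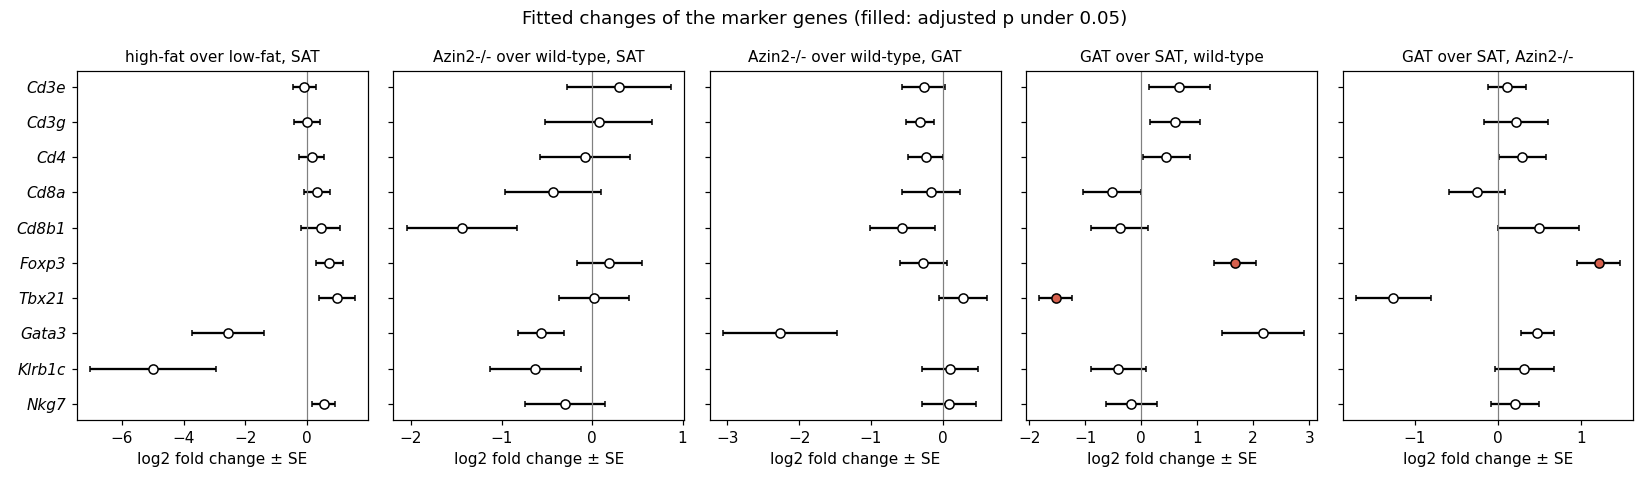
Log2 fold change with SE (points and bars) of each marker gene from edgeR in 5 comparisons named above the panels; positive values are higher in the first-named group and filled points have an adjusted p under 0.05. Foxp3 and Tbx21 between the wild-type depots and Foxp3 between the Azin2-/- depots are the 3 filled points, and the wide bars of Klrb1c and Gata3 for diet include the library labelled low-fat SAT replicate 1.

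The 2 epididymis-rich libraries stood out in a small set of lymphocyte genes. Of 95 T and NK cell genes, the 10 members included, 8 exceeded 5 times the highest of the other 22 libraries in the library labelled low-fat SAT replicate 1. These were Lef1 (109 times), Klrb1c (98.0 times), Tcf7 (39.5 times), Klrb1a (31.1 times), Zap70 (14.7 times), Skap1 (13.5 times), Gata3 (10.7 times) and Dapl1 (6.88 times). In wild-type GAT replicate 3, 3 of them did, namely Gata3 (8.44 times), Skap1 (6.22 times) and Tcf7 (5.98 times). Both libraries also held the transcripts that overlap Gata3. 4930412O13Rik on the opposite strand was at 7.25 CPM in the library labelled low-fat SAT replicate 1 and 6.22 CPM in wild-type GAT replicate 3, against 0.161 CPM or less elsewhere. Cd3e, by contrast, was 2.70 and 2.23 CPM in these 2 libraries, inside the range of the others. These genes were named after their values were seen, and the part of epididymal cells in their levels was not tested.

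**Figure D4:**
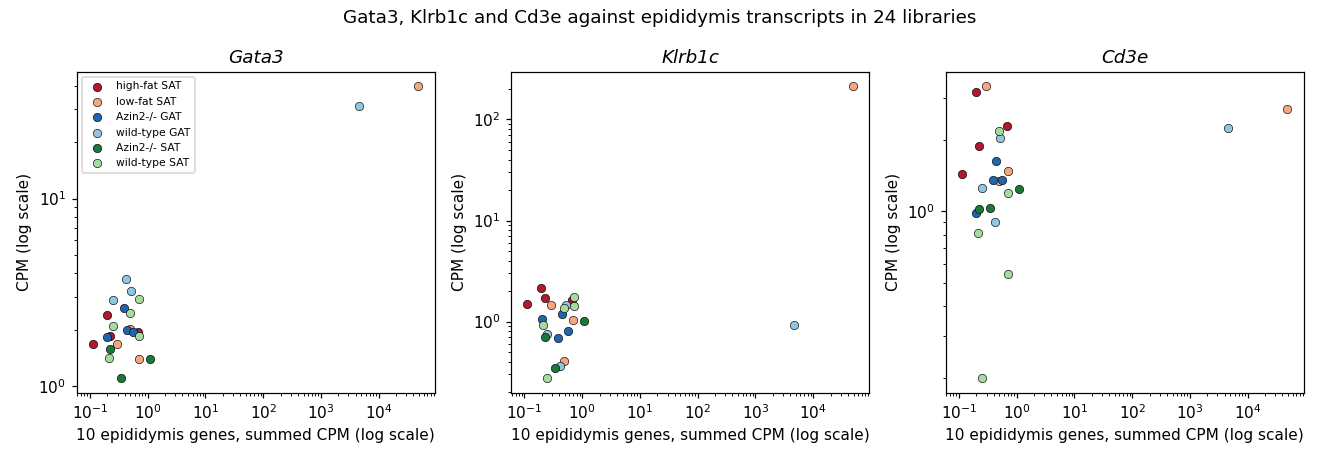
Level of Gata3, Klrb1c and Cd3e against the summed level of 10 epididymis genes (both in CPM, log axes), one point per library, coloured by group. The library labelled low-fat SAT replicate 1 (48447 CPM) and wild-type GAT replicate 3 (4589 CPM) lie apart in Gata3, the first of them also in Klrb1c, and neither in Cd3e.

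Other lymphocyte genes were described by lists around the members. Among 19 genes of T cell receptor signalling, 4 rose on the high-fat diet and 0 fell, where 21.2% of all genes were called. They were Lcp2, an adaptor also used by myeloid cells (log2 fold change 1.28), Themis, a T cell signalling protein (1.46), Thy1, a surface protein shared with stromal cells (0.94), and Trac, the constant region of the receptor alpha chain (0.94). The same 4 rose without the library labelled low-fat SAT replicate 1, where 47% of all genes were called. Among 20 cytotoxic and NK cell genes, 1 rose, Ncr1, which encodes the NK cell receptor NKp46 (log2 fold change 1.30, SE 0.323, edgeR adjusted p = 0.0263). Ncr1 ranged from 1.87 to 2.99 CPM in high-fat SAT, against 0.446 to 1.13 CPM in low-fat SAT, with no overlap. Without that low-fat library 4 of the 20 rose, namely Klrd1, Klrb1a, Ncr1 and Klra8, again where 47% of all genes were called. Among 15 genes of regulatory and activated T cells 1 rose, the inhibitory receptor Havcr2 (1.18), and without that library 3 rose (Il10, Havcr2 and Il2ra) and 2 fell (Ikzf4 and Lag3). The share called in each of these lists was below that 47%.

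Of 9 tested genes of naive and homing lymphocytes 3 rose on the high-fat diet, among them Il7r (log2 fold change 3.82) and Ccr7 (1.51), where 21.2% of all genes were called. Without the library labelled low-fat SAT replicate 1, 3 rose and 1 fell, with a median log2 fold change of -0.02, where 47% of all genes were called. Il7r, the interleukin 7 receptor, ranged from 19.9 to 31.1 CPM in high-fat SAT, against 1.13 to 2.10 CPM in low-fat SAT. The whole naive and homing list summed to 578 to 669 CPM in high-fat SAT and 504 to 1030 CPM in low-fat SAT. Cd3e reached at most 3.34 CPM in these groups, and which cells hold the transcripts of this list was not tested. B cell and macrophage lists moved beside these genes, with 7 of 14 and 13 of 15 genes higher and 0 lower, or 12 and 14 higher and 1 and 0 lower without the library labelled low-fat SAT replicate 1. The summed macrophage level was 1970 to 2648 CPM in high-fat SAT, against 430 to 590 CPM in low-fat SAT, and the part of these cells in the lymphocyte lists was not tested.

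By genotype the same lists gave these counts. In SAT 0 genes of any lymphocyte list were called by edgeR, with 2 of 19 receptor signalling genes and 0 of 17 cytotoxic genes at an unadjusted p under 0.05, and 0 were called without the muscle-rich libraries. In GAT, 2 of 19 receptor signalling genes rose in Azin2-/- mice, Lcp2 (log2 fold change 0.99) and Themis (1.95), where 6.77% of genes were called. Of 17 cytotoxic genes tested 0 were called there, with 0 at an unadjusted p under 0.05. Il7r rose (2.10), at 27.4 to 96.6 CPM in Azin2-/- GAT, against 8.58 to 29.2 CPM in wild-type GAT. It was the 1 gene called of 9 naive and homing genes tested. Of those 9 fold changes 2 were positive and 7 negative, with a median of -0.29 on the log2 scale. Of 14 B cell genes 4 fell, among them Cd79a (-1.78), Ms4a1 (-2.02) and Cr2 (-2.11), and 1 rose. Without wild-type GAT replicate 3, where Cd79a reached 6.32 CPM, 3 of the 14 B cell genes were still lower and 1 was higher. In that fit 1 receptor signalling gene rose (Lcp2) and 1 fell, where 7.94% of genes were called, and Il7r was not called. Macrophage genes moved in the same comparison, 11 of 15 of them higher with replicate 3 and 8 of 15 without it, and their part in the Lcp2 and Il7r results was not tested.

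Between depots, few genes of the receptor signalling, cytotoxic and regulatory lists were called beside Foxp3 and Tbx21. Of 5 tested type 2 and innate lymphocyte genes, 2 rose and 1 fell in Azin2-/- GAT. Between the wild-type depots 0 of 4 were called, or 1 higher and 2 lower without wild-type GAT replicate 3 and wild-type SAT replicate 3. In wild-type mice, where 4.33% of all genes were called, 1 of 19 receptor signalling genes fell in GAT, Thy1 (log2 fold change -0.89), and 1 of 13 regulatory and activation genes fell, Tnfrsf9 (-1.26), an activation receptor. Tnfrsf9 ranged from 0.345 to 0.464 CPM in wild-type GAT, against 0.626 to 1.14 CPM in wild-type SAT. Il7r rose (1.88), the 1 gene called of 9 naive and homing genes tested. The gamma delta receptor gene Tcrg-C1 also rose (1.58), the 1 gene called of 6 tested on the gamma delta list. Of those 6 fold changes 3 were positive and 3 negative. Tcrg-C1 held only 11 to 22 counts per wild-type GAT library and 3 to 6 per wild-type SAT library. Without wild-type GAT replicate 3 and wild-type SAT replicate 3, 1 of the 6 was called higher and 1 lower. Of 17 cytotoxic genes 0 were called, 1 had an unadjusted p under 0.05, and their median log2 fold change was -0.04. Without wild-type GAT replicate 3 and wild-type SAT replicate 3, Thy1 and Tnfrsf9 were again called lower, and 1 of 17 cytotoxic genes rose, the inhibitory receptor Klrg1 (1.55), where 6.67% of all genes were called. In Azin2-/- mice, where 15.2% of all genes were called, 1 of 19 receptor signalling genes rose in GAT, Lcp2 (1.35), with Havcr2 (2.55), 1 of 15 regulatory and activation genes, and Il7r (3.09) and Klf2 (0.40), 2 of 9 naive and homing genes. These stood beside 14 of 15 macrophage genes that rose, and of 17 cytotoxic genes 0 were called with 2 at an unadjusted p under 0.05. Without the muscle-rich Azin2-/- SAT replicate 2, Thy1 (-0.82) and Tnfrsf9 (-1.26) also fell in Azin2-/- GAT, and 9 of 15 macrophage genes rose, where 14.7% of all genes were called. Of the 13 regulatory and activation genes tested between the wild-type depots, 0 rose with Foxp3 by edgeR, with 4 at an unadjusted p under 0.05 in either direction.

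The patterns most like those of 4 members were ranked by Pearson correlation of log2(CPM + 0.5) over the 24 libraries, among 18966 genes. Cd3e was most like Cd3d (r = 0.827), Gbp8 (r = 0.826) and Trbc2 (r = 0.822). Foxp3 was most like Gapt (r = 0.907), E230016K23Rik (r = 0.897) and Emilin2 (r = 0.889), Klrb1c like St8sia6 (r = 0.968), Oxr1 (r = 0.957) and Spo11 (r = 0.957), and Gata3 like Dnajc10 (r = 0.971), Dbil5 (r = 0.970) and Spint2 (r = 0.968). The libraries share tissue and group differences, and those of Klrb1c and Gata3 also the 2 epididymis-rich libraries, so these values are descriptions without a test.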

How the data were processed

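Per the labels' protocols, RNA of whole adipose tissue was made into stranded total RNA libraries for paired-end sequencing. For each library the authors deposited 1 table of unnormalised counts by Ensembl identifier. The tools were cutadapt, STAR and HTSeq 0.6.1p1 on GRCm38 (mm10), per the submitters' processing notes. Other versions, the annotation release and the strand setting: not given in the sources used here. Of 49585 identifiers, 49326 are in GENCODE M21, which supplied symbols, coordinates and exon lengths, and the other 259 held 0.0103% of counts.

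Groups follow the labelled diet, genotype and depot. The labels do not state beyond marks and numbers that libraries come from separate animals, so p-values measure only the spread between these libraries. All genes past filterByExpr (minimum count 10, minimum total count 15) entered the test of edgeR 4.0.16 (R 4.3.3) with TMM normalisation and robust quasi-likelihood fitting. Calls needed an adjusted p (Benjamini-Hochberg, over every gene of the comparison) under 0.05. Only the groups compared entered a fit. CPM is the count over the library total in megareads, and the floor of 3 counts (95% confidence) covers counting error only, since reads are not independent molecules. The test was tried on simulated data with known changes added. Summaries used Python 3.11.15 and pandas 2.3.3.

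The members, gene lists and tests were chosen with earlier results of these data known. All 10 members are given in each comparison, with up to 4 called genes of smallest p per other list. Likeness was ranked for Cd3e, Foxp3, Klrb1c and Gata3 by Pearson r, 3 genes each.

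A mark shared by a GAT and a SAT library of 1 genotype was taken as an animal mark, from the titles. Deviations from the group means correlated by 0.231, -0.0217 and -0.0602 for the 3 wild-type pairs and by -0.0312 and 0.0459 for the 2 Azin2-/- pairs. Alternatives were the size factors and the Wald test of DESeq2 1.42.0, no low-count filter, a replicate block, leaving out each library, and leaving out muscle-rich libraries. Those that leave out an epididymis-rich library together with others, and the list counts without such libraries, were chosen after seeing the data. Some genes of these lists are not reported here.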

Additional observations from a re-analysis of the deposited data

Results flagged for a closer look

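Within groups of 4 or 5 libraries, 50 sets of values were screened for a library whose gap to its nearest neighbour takes up most of the range of the group (Dixon's criterion at 95%). Chance marks about 1 in 20 such groups, and 6 of the 50 were marked. In Azin2-/- GAT replicate 1, Cd8b1 stood low at 0.139 CPM (5 counts) and Nkg7 stood low at 1.58 CPM. In low-fat SAT replicate 5, Cd4 stood high at 4.34 CPM. In wild-type GAT replicate 3, Gata3 stood high at 31.3 CPM. In the library labelled low-fat SAT replicate 1, Gata3 stood high at 39.7 CPM and Klrb1c at 212 CPM. The last 3 values are from the 2 libraries with high epididymis transcripts, and the part of epididymal cells in them was not tested.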

How the results depend on the processing

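The number of members called was kept in the genotype comparisons and in the difference between depots under every alternative run, and it moved in the others. For diet it was 0, and 1 with the replicate number as a replicate block (Tbx21, log2 fold change 0.77, edgeR adjusted p = 0.0265, against 0.069 to 0.425 under its other alternatives). Diet numbers are only numbers: deviations of same-numbered libraries correlated by 0.218, 0.0179 and 0.0811. Only replicates 3, 5 and 6 occur in both diets. The block fit thus drew no diet difference from the library labelled low-fat SAT replicate 1 or from high-fat SAT replicate 4. Between wild-type depots 2 were called, 1 without a filter, 1 without muscle-rich libraries, 0 with the replicate block and 0 to 2 when single libraries were left out. Between Azin2-/- depots 1 was called, 2 by the DESeq2 Wald test, 2 without muscle-rich libraries, 0 with the replicate block and 0 to 2 when single libraries were left out.

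Of 830 alternative fold changes of members, 785 kept their direction and 45 reversed. The diet block and the fit without the library labelled low-fat SAT replicate 1 both leave that library out of the diet difference. Gata3 and Klrb1c reversed in both, at 0.12 and 0.766 without that library. Other causes were not tested. For diet, log2 fold changes that reversed were those of Cd3e (0.249 with the block), Cd3g (0.000741 with DESeq2 size factors, 0.00841 by the Wald test, 0.0102 without a filter, 0.0689 with the block), Gata3 (0.196 with the block) and Klrb1c (0.896 with the block). Without muscle-rich libraries, Cd3g was -0.205 for genotype in SAT and Cd4 0.0207 for the difference between depots. Without muscle- and epididymis-rich libraries, that difference was 0.0477 for Cd4 and -0.132 for Tbx21. With the block, Cd3g was -0.0671 between Azin2-/- depots.

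With single libraries left out, the following ranges crossed 0. For diet they were -0.312 to 0.202 for Cd3e, -0.254 to 0.275 for Cd3g, -0.0392 to 0.693 for Cd4, -2.91 to 0.12 for Gata3 and -5.4 to 0.766 for Klrb1c. For genotype in SAT they were -0.356 to 0.43 for Cd3g, -0.33 to 0.376 for Cd4, -0.0136 to 0.393 for Foxp3 and -0.528 to 0.368 for Tbx21. For genotype in GAT they were -0.403 to 0.314 for Cd8a, -0.457 to 0.0191 for Foxp3, -0.15 to 0.475 for Klrb1c and -0.133 to 0.453 for Nkg7. For depot they were -0.547 to 0.042 for Nkg7 in wild-type and -0.151 to 0.642 for Cd3g in Azin2-/- mice. For the difference between depots they were -0.751 to 0.0381 for Cd3g, -0.619 to 0.0967 for Cd4, -0.085 to 0.743 for Cd8a and -0.0718 to 0.821 for Tbx21.

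The number of all genes called varied more. It was 3622 for diet (2335 without a filter, 5867 with the block, 1802 to 8109 leaving out single libraries, the highest without low-fat SAT replicate 1), 1 for genotype in SAT (303 by the Wald test, 8 without muscle-rich libraries, 0 to 4) and 1136 for genotype in GAT (3024 by the Wald test, 0 without a filter, 0 to 2672). It was 738 between wild-type depots (1872 by the Wald test, 490 without a filter, 1136 without muscle- and epididymis-rich libraries, 0 with the block, 296 to 909), 2549 between Azin2-/- depots (4225 by the Wald test, 1099 with the block, 36 to 3414) and 0 for the difference (158 by the Wald test, 0 to 107). DESeq2 gave no adjusted p to Gata3 for diet, for genotype in GAT and between wild-type depots, nor to Klrb1c for diet. The members held few counts, 4 to 106 for Foxp3, which limits what these libraries can show.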
